A study of Homo sapiens with 18 samples.

Results

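The STAT transcription factors STAT3, STAT4, STAT5A, STAT5B and STAT6 were followed through a knockdown experiment that aimed its siRNAs at 3 of them. They were represented by every probe set of the Affymetrix U133 Plus 2.0 array whose only gene symbol in the platform annotation was one of these genes, which gave 13 of 54675 probe sets. STAT3 had 4 of them, STAT5B had 5, STAT6 had 2, and STAT4 and STAT5A had 1 each. The rule uses no measured value. Total RNA came from DU145 and CWR22Rv1, which are established cell lines of human prostate cancer. CWR22Rv1 expresses the androgen receptor and DU145 is known for growing without it. In each line, 1 group received a siRNA of scrambled sequence, 1 group received Stat3 siRNA and 1 group received siRNA against Stat5a and Stat5b together, all with the lipid reagent Lipofectamine 2000. All 6 groups were harvested 48 h after transfection, so the scramble controls share the transfection and the time with the knockdowns, and each group held 3 arrays. The labels do not say that the triplicates came from separate cultures, so p-values measure the spread between these arrays, which may be technical.

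STAT proteins carry cytokine and growth factor signals from the cell membrane to the nucleus. A ligand brings receptor chains together, the receptor-bound Janus kinases phosphorylate a tyrosine of the STAT, and the phosphorylated STATs dimerise through their SH2 domains, enter the nucleus and bind DNA at palindromic sites. STAT3 is known for relaying interleukin-6 family signals and STAT5A and STAT5B for relaying prolactin and growth hormone, and all 3 are active in many prostate cancers. STAT4, which answers interleukin-12, is known mainly from lymphocytes and other leukocytes, and STAT6 answers interleukin-4 and interleukin-13. In the RefSeq annotation of GRCh38.p14, STAT5B, STAT5A and STAT3 are consecutive genes on chromosome 17.

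Expression is given in log2 units for each probe set, with array medians between 5.156 and 5.198 and a median of 5.175 over the whole table, called the table median below. A value near it cannot be told from a transcript that is hardly expressed, because no detection calls were used. A change is called where the limma adjusted p, Benjamini-Hochberg corrected over 54613 probe sets, is under 0.05. Markers of the lines followed the labels: KLK2, HOXB13 and TMPRSS2, which are genes of luminal prostate cells, had means of 10.14, 9.35 and 8.49 in CWR22Rv1 scramble controls and 3.54, 4.44 and 4.81 in DU145 scramble controls. All 4 epithelial markers lay above the table median on all 18 arrays. KLK3 had nearly the same mean in the scramble controls of both lines, 6.76 in CWR22Rv1 and 6.69 in DU145. In these bulk samples, a lower value from fewer cells with the transcript and from less transcript per cell cannot be told apart.

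Stat3 siRNA lowered STAT3 in both lines and Stat5a/b siRNA lowered STAT5B in both lines, while STAT5A measured lower without passing the test in either line alone. Among the STATs that no siRNA was aimed at, STAT4 fell in DU145 with either siRNA, and 1 STAT6 probe set rose in 1 line with each siRNA. With Stat3 siRNA in DU145, 1 STAT probe set rose and 4 fell of 13, in a comparison that called 9.02% of all probe sets (4.33% higher, 4.69% lower). In the same line, Stat5a/b siRNA raised 1 and lowered 4, beside 15.6% of all probe sets (7.34% higher, 8.3% lower). In CWR22Rv1, Stat3 siRNA lowered 3 and raised none, beside 2% of all probe sets (1.2% higher, 0.798% lower). Stat5a/b siRNA there raised 1 and lowered 3, beside 3.1% (1.27% higher, 1.82% lower). Arrays of the siRNA and scramble groups did not overlap for 8 and 8 of the 13 in DU145 and for 7 and 6 in CWR22Rv1 with Stat3 and Stat5a/b siRNA, beside 20.8%, 27.5%, 26% and 25.7% of all probe sets. Probe sets of the siRNA's own target genes, 4 for Stat3 and 6 for Stat5a/b siRNA, made up 4 and 5 of these in DU145 and 3 and 3 in CWR22Rv1. The median change of the 13 was -0.20 and 0.020 in DU145 and -0.12 and 0.059 in CWR22Rv1 with Stat3 and Stat5a/b siRNA, beside medians of 0.0041, 0.0022, -0.0020 and 0.011 over all probe sets. Both siRNA groups of a line were compared with the same 3 scramble arrays, so these comparisons are not independent of each other.

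**Figure D1:**
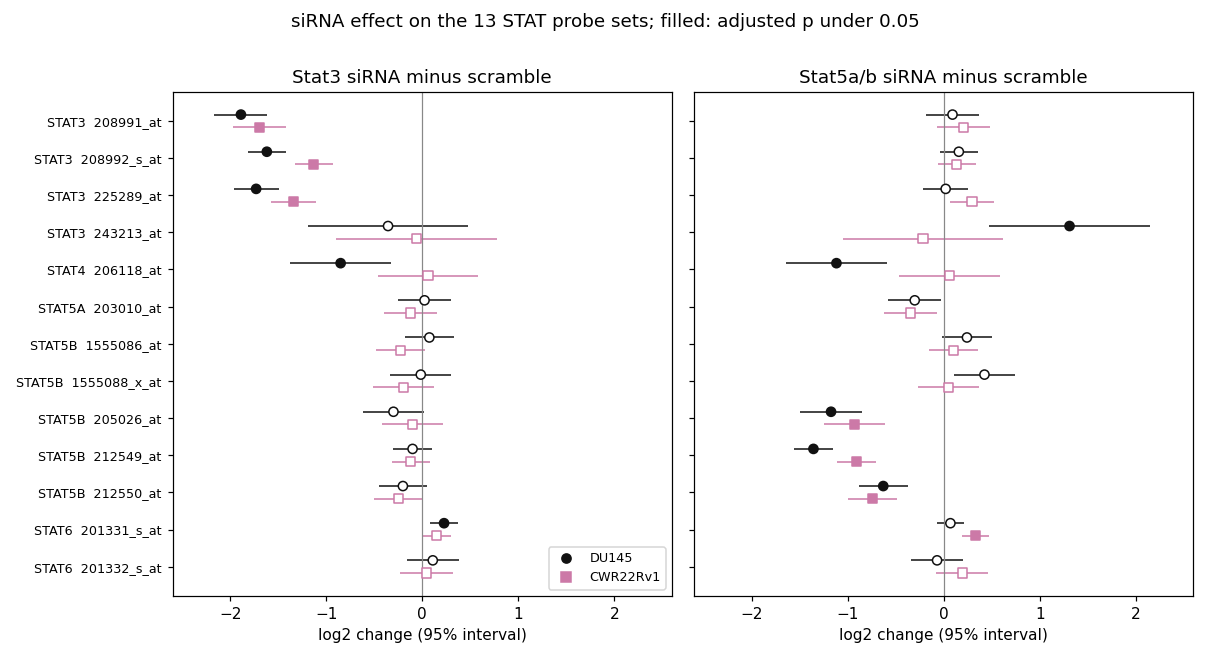
Log2 change of the 13 STAT probe sets against the scramble controls of the same line, with Stat3 siRNA on the left and Stat5a/b siRNA on the right. Circles are DU145, squares CWR22Rv1, bars the 95% interval of the limma fit and filled symbols an adjusted p under 0.05. The STAT3 probe sets 208991_at, 208992_s_at and 225289_at lie between -1.89 and -1.13 on the left, the STAT5B probe sets 205026_at, 212549_at and 212550_at between -1.36 and -0.63 on the right, and STAT4 is filled only in DU145.

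STAT3 was read by 3 probe sets that fell together and by 1 dim probe set that did not. The brightest, 208992_s_at, measured 10.91, 10.96 and 10.82 in the DU145 scramble arrays, 9.45, 9.19 and 9.20 with Stat3 siRNA, and 11.08, 11.12 and 10.97 with Stat5a/b siRNA. The CWR22Rv1 values were 7.40, 7.21 and 7.24 in the scramble arrays, 6.04, 6.31 and 6.11 with Stat3 siRNA, and 7.52, 7.42 and 7.31 with Stat5a/b siRNA. Every Stat3 siRNA array lay below every scramble array of its line. The change was -1.62 (SE 0.094, adjusted p = 2.94e-08, limma) in DU145, or 32.6% of control (95% interval 28.4 to 37.4), and -1.13 (SE 0.094, adjusted p = 4.22e-06) in CWR22Rv1, or 45.7% (39.8 to 52.4). Probe set 225289_at left 30.2% in DU145 and 39.5% in CWR22Rv1, and 208991_at left 27.0% and 30.9%. Probe set 208991_at measured 6.60, 6.51 and 6.52 in the CWR22Rv1 scramble arrays and 4.78, 5.18 and 4.59 with Stat3 siRNA. The last of these groups reached the table median, where the size of a fall can be understated.

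The measured size of the fall varied between the 3 STAT3 probe sets. Averaged over the lines, 208991_at fell further than 208992_s_at by a difference of -0.42 in log2 change, and 225289_at fell further by -0.16. The exact permutation p-values, two-sided and with the arrays permuted within each line, were 0.005 and 0.04, where 0.005 is the smallest the 400 arrangements allow. Adjusted over the 7 differences of this kind computed for STAT3 and STAT5B, they were 0.00875 and 0.0467. The 7 include 243213_at and 1555086_at, which lie so near or below the table median that they could hardly show a fall. Their small p-values lower the adjusted values of the others, so no call is drawn from 0.0467. This comparison of probe sets was chosen after the data were seen. The fourth probe set, 243213_at, changed by -0.36 (adjusted p = 0.688) with Stat3 siRNA in DU145 and by -0.059 in CWR22Rv1 (adjusted p = 0.980), and its intervals reached from 43.8% to 139% and from 53.8% to 171% of control. It lay above the table median on only 2 of 18 arrays.

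**Figure D2:**
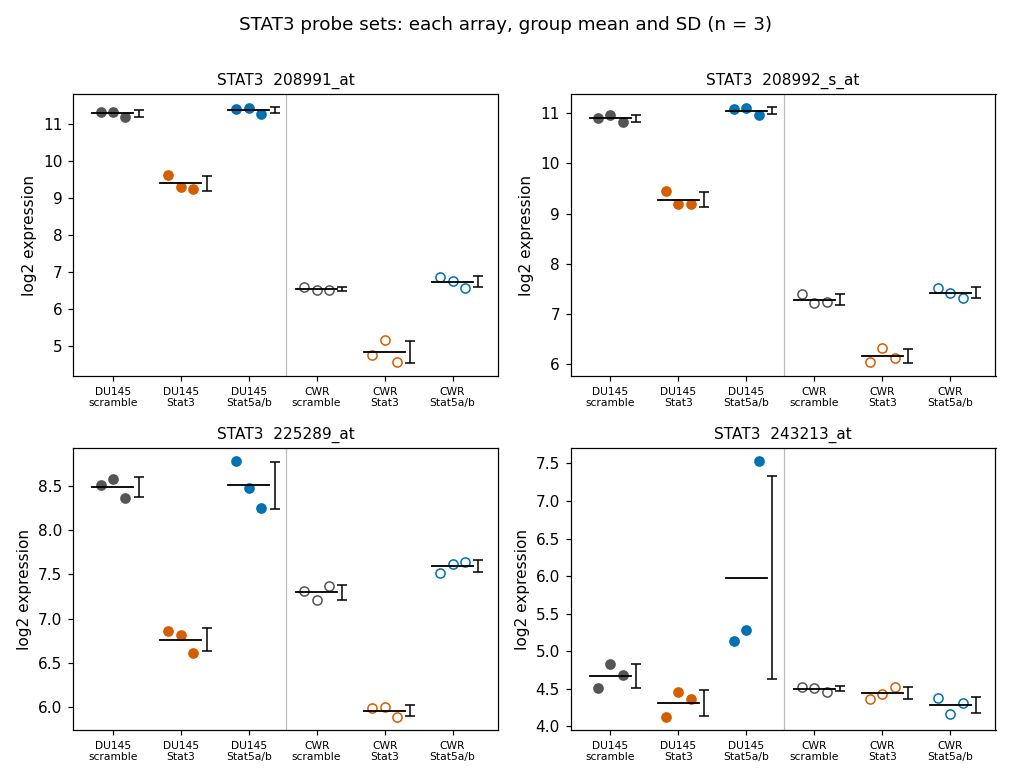
Log2 expression of the 4 STAT3 probe sets on each of the 18 arrays, with lines for the group mean and bars for the SD (n = 3 arrays per group); filled points are DU145 and open points CWR22Rv1. Probe sets 208991_at, 208992_s_at and 225289_at drop with Stat3 siRNA in both lines, and 243213_at stays under 5.29 except for the array at 7.53 with Stat5a/b siRNA in DU145.

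Stat5a/b siRNA was not aimed at STAT3, and the 3 brighter STAT3 probe sets were not called with it in either line. Their changes ran from 0.020 to 0.29, all above 0. The largest, 225289_at in CWR22Rv1, measured 7.31, 7.21 and 7.37 in scramble arrays and 7.51, 7.61 and 7.65 with Stat5a/b siRNA, groups that did not overlap (0.29, adjusted p = 0.209, limma). It was called with CWR22Rv1 fitted alone (adjusted p = 0.0335) and with array weights (0.30, adjusted p = 0.0485). The dim probe set 243213_at was called higher in DU145, where it measured 4.51, 4.83 and 4.68 in scramble arrays and 5.13, 5.28 and 7.53 with Stat5a/b siRNA. Replicate 3 stood more than 2 log2 units above the other siRNA arrays. The change was 1.31 (SE 0.39, adjusted p = 0.0321), and it was 0.53 (adjusted p = 0.0041) without replicate 3 of the siRNA group. Without scramble replicate 1, 2 or 3 the change was 1.23, 1.39 and 1.32 and was no longer called (adjusted p = 0.103, 0.0588 and 0.0606). The call was also lost with array weights, with a variance trend and with DU145 fitted alone. In CWR22Rv1 the same probe set changed by -0.22 (adjusted p = 0.905).

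STAT5B, one of the pair of STAT5 genes targeted together, fell at 3 of its 5 probe sets in both lines. The brightest, 212549_at, measured 7.95, 8.01 and 8.16 in DU145 scramble arrays, 8.13, 7.87 and 7.81 with Stat3 siRNA, and 6.80, 6.63 and 6.61 with Stat5a/b siRNA. The CWR22Rv1 values were 8.00, 7.87 and 7.95 in scramble arrays, 7.86, 7.79 and 7.83 with Stat3 siRNA, and 7.17, 6.90 and 7.04 with Stat5a/b siRNA. The Stat5a/b siRNA arrays lay below all other arrays of their line. The change was -1.36 in DU145 (SE 0.094, adjusted p = 7.5e-08, limma) and -0.91 in CWR22Rv1 (SE 0.094, adjusted p = 3.33e-05), which left 39.1% (95% interval 34.0 to 44.9) and 53.4% (46.5 to 61.3) of control. Probe set 205026_at left 44.4% and 52.5%, with adjusted p of 4.76e-05 and 0.0018. Its Stat5a/b siRNA arrays, with means of 4.85 and 4.68, all lay below the table median, so these falls can be understated too. Probe set 212550_at left 64.6% and 59.9%, with adjusted p = 0.00158 and 0.0018.

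The other 2 STAT5B probe sets did not fall. Probe set 1555086_at changed in DU145 by 0.24 (adjusted p = 0.209) and in CWR22Rv1 by 0.10 (adjusted p = 0.832), and 1555088_x_at by 0.42 (adjusted p = 0.0684) and 0.052 (adjusted p = 0.946). The change of 1555088_x_at in DU145 was called as a rise with the filter on dim probe sets (adjusted p = 0.0451), with array weights (0.53, adjusted p = 0.012) and without replicate 3 of the siRNA group (0.58, adjusted p = 0.0135). Its arrays measured 5.34, 5.63 and 5.70 in scramble and 6.20, 6.08 and 5.66 with Stat5a/b siRNA, so the groups overlapped. Averaged over the lines, the log2 changes of 1555086_at and 1555088_x_at lay above that of 212549_at by 1.30 and 1.37. Scramble means of 1555086_at, 5.05 in DU145 and 5.30 in CWR22Rv1, were so near the table median that it could hardly have shown a fall of that size. Those of 1555088_x_at were 5.56 and 6.04. From scramble means of 6.02 and 5.61, 205026_at changed by -1.17 and -0.93. Why 1555088_x_at did not fall was not tested, and no p is given for these differences. Probe set 205026_at differed from 212549_at by 0.079 (exact permutation p = 0.505), and 212550_at fell less, by 0.45 (exact permutation p = 0.03, adjusted 0.042). That adjusted value is lowered in the same way as those of STAT3, so no call is drawn from it. Probe set 1555086_at lay near the table median, with 8 of 18 arrays above it. A name ending in _x_at marks a probe set whose probes can also bind other transcripts. Averaging all 5 probe sets gave STAT5B changes of -0.50 and -0.48 in the lines (adjusted p = 0.000216 and 0.00134), so the reading of the knockdown moves with the choice of probe sets.

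With Stat3 siRNA, none of the 5 STAT5B probe sets was called in either line. The 3 that responded to their own siRNA measured -0.30, -0.10 and -0.20 in DU145 and -0.10, -0.12 and -0.25 in CWR22Rv1 for 205026_at, 212549_at and 212550_at. All 6 values lay below 0, and their smallest adjusted p was 0.270. The lower bounds of the 95% intervals were between 65.1% and 81.2% of control.

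**Figure D3:**
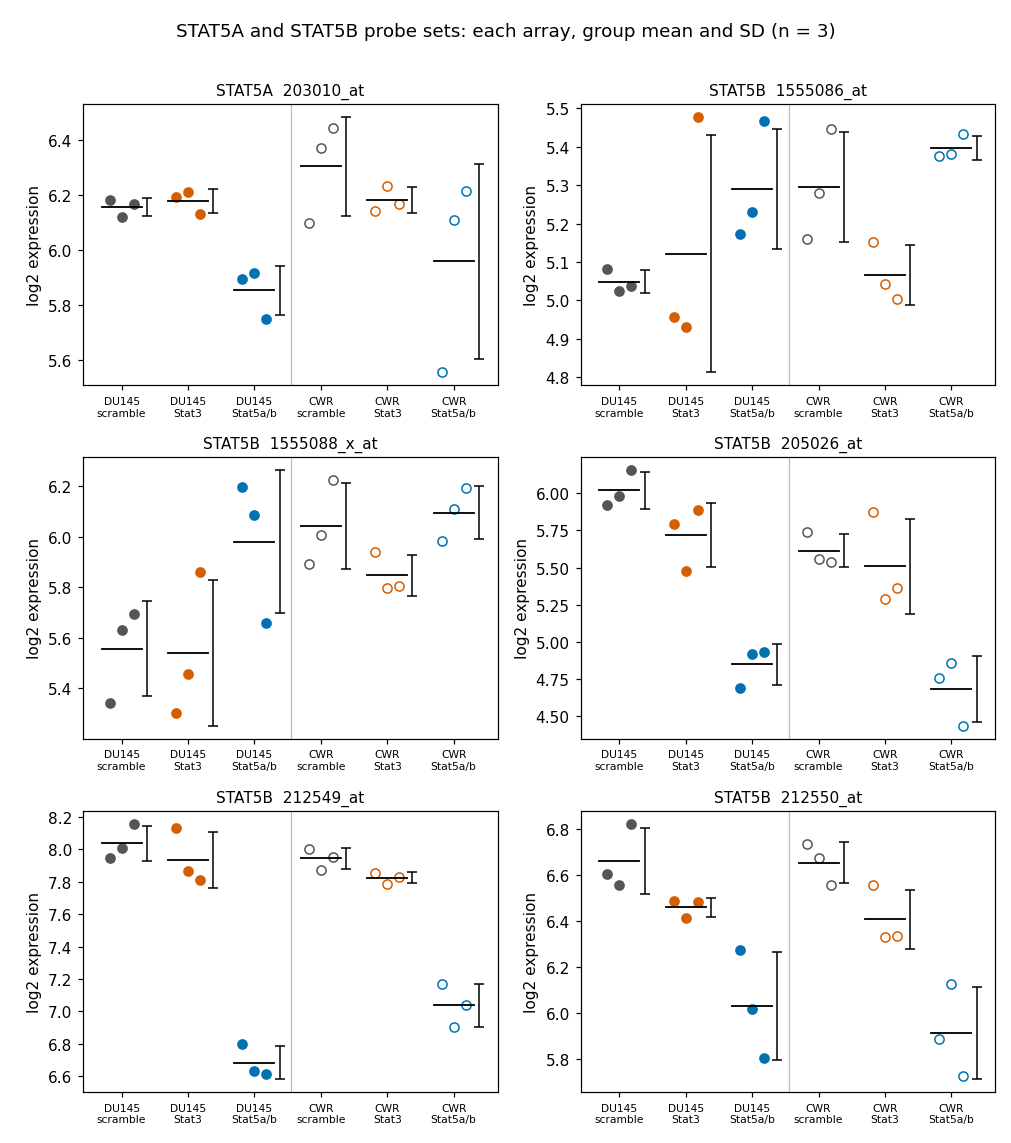
Log2 expression of the STAT5A probe set and the 5 STAT5B probe sets on each of the 18 arrays, with lines for the group mean and bars for the SD (n = 3 arrays per group); filled points are DU145 and open points CWR22Rv1. With Stat5a/b siRNA, 205026_at, 212549_at and 212550_at lie below the scramble arrays in both lines, while 1555086_at and 1555088_x_at do not, and STAT5A is lower by 0.30 and 0.34 on average.

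STAT5A, the other target of the Stat5a/b siRNA, was read by 203010_at alone. In DU145 it measured 6.18, 6.12 and 6.17 in scramble arrays, 6.19, 6.21 and 6.13 with Stat3 siRNA, and 5.90, 5.92 and 5.75 with Stat5a/b siRNA. The Stat5a/b siRNA arrays lay below the other DU145 arrays, and the change of -0.30 (SE 0.13) left 81.1% of control (95% interval 67.1 to 98.1) with an adjusted p of 0.134 (limma). In CWR22Rv1 it measured 6.10, 6.37 and 6.44 in scramble arrays and 5.56, 6.11 and 6.22 with Stat5a/b siRNA. These groups overlapped, and the change of -0.34 (SE 0.13, adjusted p = 0.210) shrank to -0.14 (adjusted p = 0.600) without replicate 1 of the siRNA group, the array at 5.56. Neither line alone thus passed the test under any alternative run.

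A contrast of the mean effect over both lines, added after the data were seen, called STAT5A lower: -0.32 (SE 0.091, adjusted p = 0.0282, limma), or 79.9% of control (95% interval 69.9 to 91.4). In that contrast 11.6% of all probe sets were called, and 5 of the 13 members. The call was lost without DU145 scramble replicate 1 (-0.32, adjusted p = 0.0570), DU145 Stat5a/b siRNA replicate 3 (-0.30, adjusted p = 0.0565), or CWR22Rv1 scramble replicate 2 or 3 (-0.31, adjusted p = 0.0682, and -0.29, adjusted p = 0.0780). The upper bounds for 212549_at, 44.9% of control in DU145 and 61.3% in CWR22Rv1, lay below the lower bounds for STAT5A, 67.1% and 65.2%. The upper bounds for 212550_at, 77.0% and 71.3%, lay above the lower bounds for STAT5A. For 205026_at the upper bound lay below in DU145 (55.3%) and above in CWR22Rv1 (65.4%). The separation thus depends on the STAT5B probe set. These are 1 probe set against another, and no test of the difference between the genes was run. With Stat3 siRNA, STAT5A changed by 0.023 in DU145 and -0.12 in CWR22Rv1 and was not called.

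STAT4, which no siRNA was aimed at, fell in DU145 with both siRNAs. Its probe set, 206118_at, measured 8.67, 8.72 and 7.99 in DU145 scramble arrays, 7.92, 7.72 and 7.19 with Stat3 siRNA, and 7.70, 7.59 and 6.74 with Stat5a/b siRNA. All 6 siRNA arrays lay below all 3 scramble arrays, the nearest being 7.92 against 7.99. The change was -0.85 (SE 0.25, adjusted p = 0.0394, limma) with Stat3 siRNA, or 55.5% of control (95% interval 38.6 to 79.7), and -1.12 (SE 0.25, adjusted p = 0.00484) with Stat5a/b siRNA, or 46.1% (32.1 to 66.2). The 2 knockdowns differed from each other by -0.27 (adjusted p = 0.540), and their arrays overlapped. The call with Stat5a/b siRNA held under all 13 alternatives, with changes from -1.35 to -0.81.

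The call with Stat3 siRNA held under 7 of 13 alternatives, among them the replicate block (adjusted p = 0.00176). It was lost without DU145 scramble replicate 1 (-0.74, adjusted p = 0.142) or 2 (-0.72, adjusted p = 0.147), without Stat3 siRNA replicate 2 (-0.91, adjusted p = 0.0659) or 3 (-0.64, adjusted p = 0.167), with quantile normalization and with DU145 fitted alone. In CWR22Rv1, STAT4 lay near the table median in every group. The scramble arrays measured 5.11, 5.18 and 5.45, and the siRNA arrays ran from 5.06 to 5.57. The changes there were 0.059 with each siRNA (adjusted p = 0.967 and 0.964), so a fall from this level could hardly have been seen. The siRNA effects of the lines differed by 0.91 (95% interval 0.17 to 1.65, adjusted p = 0.271) for Stat3 siRNA and by 1.18 (0.44 to 1.91, adjusted p = 0.0609) for Stat5a/b siRNA, neither of which passed the test. The latter was called with the filter on dim probe sets, with 1 probe set per gene, with array weights, and without DU145 scramble replicate 3 (1.41, adjusted p = 0.0207) or DU145 Stat5a/b siRNA replicate 1 (1.35, adjusted p = 0.0423). With the replicate number as a block both differences were called (adjusted p = 0.0458 and 0.00468). The replicate numbers met the criterion for a pairing, given below, only between DU145 scramble and Stat3 siRNA arrays. As a fall in CWR22Rv1 could hardly have been seen, no difference between the lines is drawn from these calls.

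Because STAT4 is known from leukocytes, leukocyte markers were set beside it. PTPRC, LYZ and CD2, which define leukocytes or their lineages, lay below the table median on all 18 arrays, and CD3E lay above it on 1 array. ITGB2 measured 7.84 on average in DU145 scramble controls and 7.99 and 7.80 with the siRNAs. CD14 measured 6.12 in DU145 scramble controls and was called lower with both siRNAs, at 5.02 and 5.16. Over the 6 measured markers of 7 listed, the summed log2 level ran from 28.5 to 29.6 in DU145 scramble arrays, 27.9 to 28.6 with Stat3 siRNA and 27.4 to 29.6 with Stat5a/b siRNA. Of the 4 epithelial markers, CDH1 fell in DU145 from 10.10 to 9.11 and 8.92 and EPCAM from 11.15 to 10.66 and 10.75. The other two, KRT8 (11.01, then 10.80 and 10.90) and KRT18 (13.01, then 12.85 and 13.07), were not called. The part of these genes in the STAT4 result was not tested.

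The 250 bases before each annotated start of the genes that moved without being targeted, and before 1 of the 3 starts of STAT5A, are shown to set the letters of these promoters beside the sites that STATs are known to bind. RefSeq gives 8 starts for the 5 genes in GRCh38.p14. The windows were searched, with the 50 bases after each start, for TTCNNNGAA, the palindrome that most STAT dimers bind, and for TTCNNNNGAA, the wider spacing that STAT6 prefers. Both motifs read the same on either strand. No member's window held TTCNNNGAA, which occurred in 7.66% of 35116 promoter windows of 300 bases. A STAT5A window held TTCNNNNGAA, which occurred in 6.44%, with its first base at position -229 from the start, shown in capitals. A match is a description of letters and not of binding.
STAT4, chr2:191151597-191151846, minus strand: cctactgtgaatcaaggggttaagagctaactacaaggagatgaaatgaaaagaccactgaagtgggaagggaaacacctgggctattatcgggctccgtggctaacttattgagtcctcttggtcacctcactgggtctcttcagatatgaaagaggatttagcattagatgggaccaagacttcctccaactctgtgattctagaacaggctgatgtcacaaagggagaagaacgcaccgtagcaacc
STAT4, chr2:191150995-191151244, minus strand: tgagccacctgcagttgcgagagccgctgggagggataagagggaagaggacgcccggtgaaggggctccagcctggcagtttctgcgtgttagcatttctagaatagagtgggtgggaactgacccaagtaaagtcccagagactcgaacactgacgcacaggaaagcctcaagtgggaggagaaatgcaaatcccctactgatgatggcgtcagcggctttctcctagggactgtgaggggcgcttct
STAT6, chr12:57110290-57110539, minus strand: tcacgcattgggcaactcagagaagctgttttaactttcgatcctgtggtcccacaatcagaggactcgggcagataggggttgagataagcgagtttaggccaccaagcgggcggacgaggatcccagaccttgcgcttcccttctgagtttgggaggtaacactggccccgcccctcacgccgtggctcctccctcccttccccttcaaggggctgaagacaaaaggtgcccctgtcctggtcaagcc
STAT5A, chr17:42287189-42287438, plus strand: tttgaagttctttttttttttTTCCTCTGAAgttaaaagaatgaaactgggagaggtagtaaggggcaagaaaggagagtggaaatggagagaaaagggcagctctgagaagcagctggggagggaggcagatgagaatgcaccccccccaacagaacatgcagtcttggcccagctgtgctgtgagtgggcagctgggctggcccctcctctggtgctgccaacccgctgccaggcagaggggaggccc

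STAT6, which was not targeted either, rose slightly at 1 of its 2 probe sets. In DU145, 201331_s_at measured 8.57, 8.56 and 8.43 in scramble arrays, 8.82, 8.74 and 8.69 with Stat3 siRNA, and 8.66, 8.57 and 8.55 with Stat5a/b siRNA. The CWR22Rv1 values were 8.95, 9.01 and 8.97 in scramble arrays, 9.06, 9.17 and 9.15 with Stat3 siRNA, and 9.28, 9.26 and 9.38 with Stat5a/b siRNA. The 3 CWR22Rv1 groups did not overlap, and in DU145 only the Stat3 siRNA arrays lay apart from the scramble arrays. The change with Stat5a/b siRNA in CWR22Rv1 was 0.33 (SE 0.068, adjusted p = 0.0106, limma), or 126% of control (95% interval 114 to 139). With Stat3 siRNA in DU145 it was 0.23 (SE 0.068, adjusted p = 0.0463), or 117% (106 to 129).

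The other STAT6 values did not pass the test: 0.15 (adjusted p = 0.365) with Stat3 siRNA in CWR22Rv1 and 0.070 (adjusted p = 0.555) with Stat5a/b siRNA in DU145. The rise in DU145 was lost when any 1 of its 6 arrays was left out, with changes from 0.18 to 0.26 and adjusted p from 0.0533 to 0.152. It was also lost with quantile normalization (adjusted p = 0.0551, limma), with DU145 fitted alone (adjusted p = 0.238) and with array weights (adjusted p = 0.149). The rise in CWR22Rv1 was lost without scramble replicate 1 (0.32, adjusted p = 0.0567) or 3 (0.33, adjusted p = 0.0503) and without Stat5a/b siRNA replicate 3 (0.29, adjusted p = 0.0659). In the added contrasts of the mean over both lines, 201331_s_at rose with each siRNA, by 0.19 (adjusted p = 0.0177) with Stat3 siRNA, where 9.14% of all probe sets were called, and by 0.20 (adjusted p = 0.0104) with Stat5a/b siRNA. The former was lost without CWR22Rv1 Stat3 siRNA replicate 2 (0.18, adjusted p = 0.0509). The dimmer probe set of STAT6, 201332_s_at, ran from 6.06 to 6.79 over all arrays, with changes from -0.069 to 0.19 and no call.

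**Figure D4:**
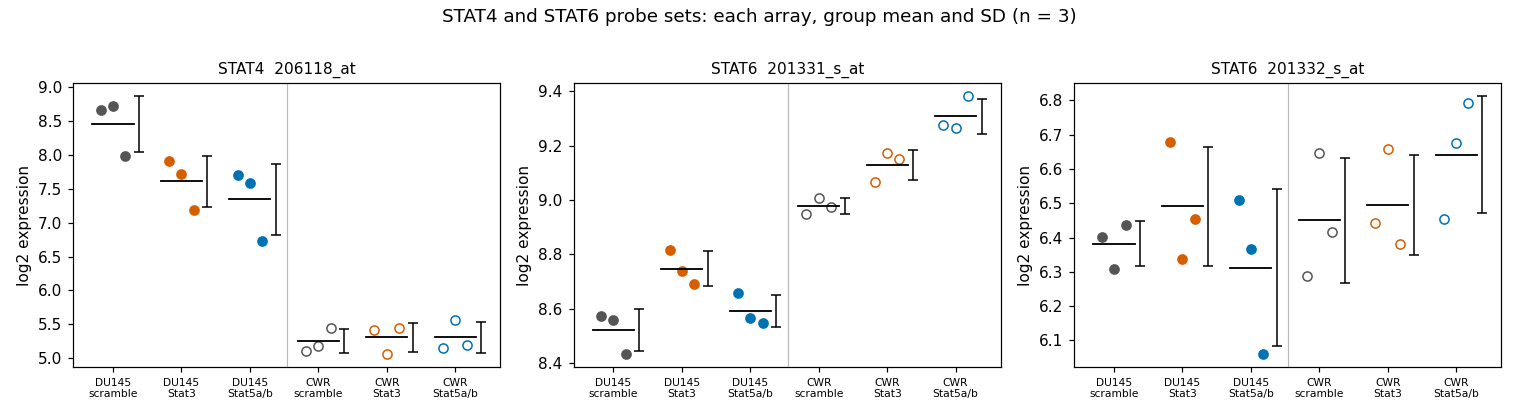
Log2 expression of the STAT4 probe set and both STAT6 probe sets on each of the 18 arrays, with lines for the group mean and bars for the SD (n = 3 arrays per group); filled points are DU145 and open points CWR22Rv1. STAT4 drops with either siRNA in DU145 and lies between 5.06 and 5.57 in CWR22Rv1, and 201331_s_at of STAT6 is highest with Stat5a/b siRNA in CWR22Rv1, at 9.26 to 9.38.

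Setting the knockdowns against each other, without the scramble arrays, separated STAT3 and STAT5B but not STAT5A. The STAT5B probe sets 1555086_at and 1555088_x_at were not called in either line. With Stat5a/b siRNA against Stat3 siRNA in DU145, 4 STAT probe sets were higher and 3 lower, beside 14.4% of all probe sets (6.9% higher, 7.45% lower). In CWR22Rv1 3 were higher and 3 lower, beside 6.1% (2.21% higher, 3.89% lower). All called members were probe sets of STAT3, on the higher side, and of STAT5B, on the lower side. For 208992_s_at of STAT3 the difference was 1.78 (SE 0.094) in DU145 and 1.27 (SE 0.094) in CWR22Rv1. For 212549_at of STAT5B it was -1.25 (SE 0.094) in DU145 and -0.79 (SE 0.094) in CWR22Rv1, and for 205026_at -0.87 and -0.83 (SE 0.15). STAT5A differed in DU145 by -0.32 (adjusted p = 0.111, limma) and in CWR22Rv1 by -0.22 (adjusted p = 0.392). STAT6 201331_s_at differed in opposite directions, by -0.16 in DU145 (adjusted p = 0.145) and by 0.18 in CWR22Rv1 (adjusted p = 0.150).

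The weakest of these calls was 212550_at of STAT5B, at -0.43 in DU145 (adjusted p = 0.0231, limma) and -0.49 in CWR22Rv1 (adjusted p = 0.0199). In DU145 it was lost under 6 of 12 alternatives. Among them were the fits without Stat3 siRNA replicate 1 (-0.41) or 3 (-0.42) and without Stat5a/b siRNA replicate 2 (-0.42) or 3 (-0.31). These fits without 1 array gave adjusted p from 0.0547 to 0.101. In CWR22Rv1 it was lost without Stat3 siRNA replicate 1 (-0.42) and without Stat5a/b siRNA replicate 1 (-0.48) or 3 (-0.40), with adjusted p from 0.0631 to 0.113. The STAT3 probe set 243213_at, called at 1.67 (adjusted p = 0.00823) in DU145, was 0.89 (adjusted p = 6.2e-05) without Stat5a/b siRNA replicate 3. Its call was lost under 1 of 11 alternatives.

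Between the scramble controls, the lines differed most in STAT3 and STAT4. Of the 13 probe sets, 2 were higher and 5 lower in CWR22Rv1 than in DU145, in a comparison that called 47.8% of all probe sets (24.7% higher, 23.1% lower). STAT3 in CWR22Rv1 stood at 3.74%, 8.16% and 43.8% of its DU145 level by 208991_at, 208992_s_at and 225289_at, with adjusted p of 4.26e-15, 1.98e-15 and 5.43e-08 (limma). The direction was the same at all 3, while the size ran from -4.74 to -1.19 in log2. STAT4 stood at 10.8% (95% interval 7.50 to 15.5, adjusted p = 4.66e-09), with CWR22Rv1 at the table median. The brightest STAT5B probe set was not called (-0.094, adjusted p = 0.454, 95% interval 81.6% to 108%), nor was STAT5A (0.15, adjusted p = 0.380, 91.8% to 134%). STAT6 201331_s_at was higher in CWR22Rv1 (0.46, adjusted p = 1.9e-05, 137%).

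Smaller calls of STAT5B went both ways: 1555088_x_at was higher in CWR22Rv1 (0.49, adjusted p = 0.0124, limma) and 205026_at lower (-0.41, adjusted p = 0.0339). The former was lost without DU145 scramble replicate 1 (0.38, adjusted p = 0.0713) or CWR22Rv1 scramble replicate 3 (0.39, adjusted p = 0.0670). The latter was lost under 5 of 11 alternatives. Among them were the fits without DU145 scramble replicate 2 (-0.43) or 3 (-0.34) or CWR22Rv1 scramble replicate 2 (-0.38) or 3 (-0.37). These fits without 1 array gave adjusted p from 0.0569 to 0.117.

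**Figure D5:**
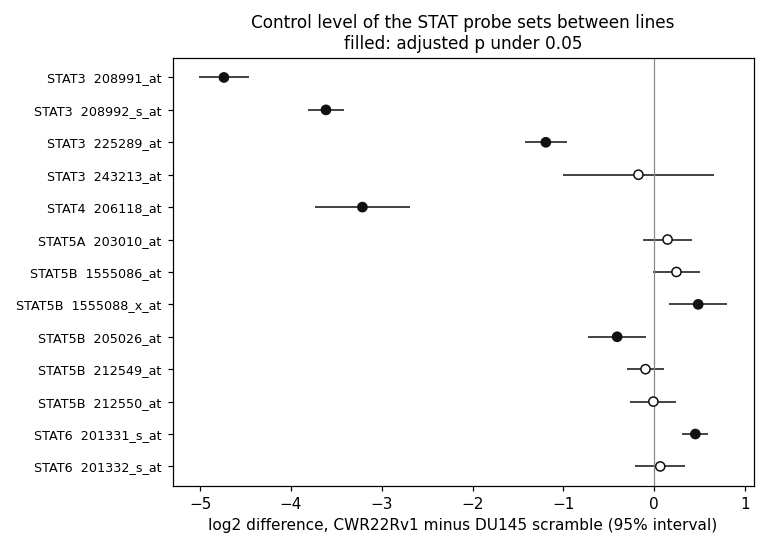
Difference in log2 expression of the 13 STAT probe sets between the scramble controls of CWR22Rv1 and DU145 (n = 3 arrays each), with the 95% interval of the limma fit as bars and filled symbols for an adjusted p under 0.05. STAT3 208991_at and 208992_s_at lie at -4.74 and -3.62 and STAT4 at -3.21, while the STAT5A symbol is open at 0.15.

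Whether a siRNA acted differently in the 2 lines was tested by the difference of its effects. In limma, 0 of the 13 were called for Stat3 siRNA, where 0.895% of all probe sets were, and 0 for Stat5a/b siRNA, where 5.49% were. At an unadjusted p under 0.05 there were 3 for Stat3 siRNA and 4 for Stat5a/b siRNA. The effect on STAT3 208992_s_at was less negative in CWR22Rv1 by 0.49 (95% interval 0.21 to 0.77, adjusted p = 0.101, limma). That on STAT5B 212549_at was less negative there by 0.45 (0.17 to 0.73, adjusted p = 0.0606). The interval of the latter difference, as a ratio, ran from 112% to 166%. The sizes depended on the probe set. For STAT3, 225289_at differed by 0.39 (adjusted p = 0.296, limma) and 208991_at by 0.19 (adjusted p = 0.733). For STAT5B, 205026_at differed by 0.24 (adjusted p = 0.603), and 212550_at in the opposite direction by -0.11 (adjusted p = 0.795). The differences of 208992_s_at and 212549_at were each called under 4 alternatives. Both were called with a variance trend (adjusted p = 0.0331 and 0.0359), with the filter on dim probe sets and with 1 probe set per gene, the STAT3 difference also without DU145 Stat3 siRNA replicate 1 (0.57, adjusted p = 0.0454), and the STAT5B difference with array weights.

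Genes whose values followed a STAT most closely were ranked by Pearson correlation over the 18 arrays, after each line's mean was taken off, among 10709 genes with a mean log2 level of at least 6. The arrays share their siRNA groups, so the correlations describe these groups, and no p is given. STAT3 was followed most closely by PTGES3 (r = 0.990), a co-chaperone of HSP90, GLO1 (r = 0.988), a glyoxalase, and KIFBP (r = 0.985). GLO1 measured -1.26 and -0.85 with Stat3 siRNA, in DU145 and CWR22Rv1 in that order, and 0.12 and -0.045 with Stat5a/b siRNA. STAT5B was followed by BTBD1 (r = 0.986), TMEM127 (r = 0.983) and ENPP4 (r = 0.983). ENPP4 measured -1.55 and -1.09 with Stat5a/b siRNA and -0.085 and 0.069 with Stat3 siRNA. STAT4 was followed by MEGF9 (r = 0.944), MFSD12 (r = 0.940) and SCD (r = 0.904), the stearoyl-CoA desaturase, which measured -0.44 and -0.65 with Stat3 and Stat5a/b siRNA in DU145 and -0.083 and 0.13 in CWR22Rv1. STAT6 was followed by H2BC12 (r = 0.925), NIPAL3 (r = 0.920) and TPP1 (r = 0.907), and STAT5A, less closely, by MORN4 (r = 0.867), ZNF688 (r = 0.833) and CMIP (r = 0.779).

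The genes around the STATs in the pathway were counted in 3 lists, with each gene read by its brightest probe set. Of 26 receptors and kinases upstream of STATs, 2 rose and 3 fell in DU145 with Stat3 siRNA and 1 rose and 5 fell in DU145 under Stat5a/b siRNA, where 12.4% and 20.6% of all 19775 genes were called. In CWR22Rv1 0 rose and 1 fell with Stat3 siRNA and 1 rose and 0 fell with Stat5a/b siRNA, where 2.86% and 4.3% were called. The medians of the list in these 4 comparisons were 0.037, -0.056, -0.054 and 0.10, beside 0.0056, 0.011, -0.0042 and 0.024 over all genes. LIFR, the receptor chain for leukemia inhibitory factor, which signals through STAT3, fell with Stat3 siRNA in both lines, with changes of -1.15 in DU145 (adjusted p = 8.82e-07, limma) and -0.56 in CWR22Rv1 (adjusted p = 0.00463). IL6R, the interleukin-6 receptor, rose in DU145 with Stat3 siRNA (0.82, adjusted p = 1.85e-06) and with Stat5a/b siRNA (0.78, adjusted p = 2.17e-06), and in CWR22Rv1 with Stat5a/b siRNA (0.89, adjusted p = 3.75e-06). Its Stat3 siRNA effect differed between the lines by -0.63 (adjusted p = 0.0087). Also in DU145, IFNGR1 fell with Stat3 siRNA (-0.55), and IL13RA1 (-0.54) and the kinase JAK1 (-0.29) fell with Stat5a/b siRNA.

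Of 19 measured brakes on the pathway, such as SOCS proteins, PIAS proteins and phosphatases, in DU145, 1 rose and 4 fell with Stat3 siRNA and 0 rose and 3 fell under Stat5a/b siRNA, beside the 12.4% and 20.6% of all genes called. PTPN6, the phosphatase SHP-1, fell with both (-0.50 and -0.62), SOCS5 fell (-0.51) and the phosphatase DUSP3 rose (0.37) with Stat3 siRNA, and PIAS3, an inhibitor of STAT3, and PDLIM2, a ubiquitin ligase known to degrade STAT4, fell with Stat5a/b siRNA (-0.41 and -0.52). In CWR22Rv1 limma called none of the 19 with either siRNA, and 5 and 2 had an unadjusted p under 0.05. The Stat5a/b siRNA effect differed between the lines for PIAS3 (0.50, adjusted p = 0.00815) and PTPN6 (0.60, adjusted p = 0.0114). The medians of the list were -0.087 and -0.018 in DU145 and 0.058 and -0.0070 in CWR22Rv1.

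Of 18 measured partners of STATs, such as coactivators, importins and adaptors, in DU145 1 rose and 2 fell with Stat3 siRNA and 3 rose and 3 fell under Stat5a/b siRNA, and 1 rose and 1 fell with each siRNA in CWR22Rv1. The shares of all genes called were 12.4% and 20.6% in DU145 and 2.86% and 4.3% in CWR22Rv1. STAM2, an adaptor of Janus kinase signalling, rose in all 4 comparisons, by 0.30 and 0.60 in DU145 and by 0.41 and 0.47 in CWR22Rv1 with Stat3 and Stat5a/b siRNA. Its relative STAM fell with Stat5a/b siRNA in both lines (-0.60 and -0.33). KPNA3, an importin alpha, fell with Stat3 siRNA in both lines (-0.60 and -0.42), and KPNA5, another, fell in DU145 with Stat5a/b siRNA (-0.69). The medians of the list were -0.020 and 0.043 in DU145 and 0.090 and -0.0022 in CWR22Rv1. Between the scramble controls, where 55.2% of all genes were called, 13 of the 26 receptors and kinases were lower in CWR22Rv1 than in DU145 and 3 were higher, with OSMR, the oncostatin M receptor, lower by a log2 difference of -5.52 and JAK1 by -4.12. Of the brakes 7 were lower and 3 higher, and of the partners 10 were lower and 4 higher, among them SOCS2 at -5.81 and NMI at -4.14.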

How the data were processed

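Gene expression was measured in 18 samples of 6 groups, each group 1 line and 1 siRNA. The authors deposited log2 expression values per probe set. Per the submitters' processing notes they used RMA and limma, with no version given. That method subtracts background, quantile-normalises arrays and summarises probes, and RMA tends to understate changes of dim probe sets. Values were used as deposited, since array medians and within-group correlations (0.9932 to 0.9975) were close. From them, limma 3.58.1 in R 4.3.3 fitted 1 mean per group over all 18 arrays (12 residual degrees of freedom), with two-sided contrasts adjusted by Benjamini-Hochberg over 54613 probe sets after 62 control probe sets were left out. Precision is limited by the number of arrays, with standard error quartiles of 0.091 and 0.136 over all probe sets. The script was tested on simulated data. As a check of pairing, deviations of equally numbered arrays correlated over 0.1 in all 3 pairs of DU145 scramble and Stat3 siRNA arrays (0.137 to 0.390), but in 5 of 9 pairs over all DU145 groups and 0 of 9 in CWR22Rv1, so the numbers met the criterion for a pairing in that comparison only. There scramble replicate 1 and Stat3 siRNA replicate 2, which differ in number, also correlated at 0.142. The main fit and the fits with 1 array left out used no pairing. All STAT probe sets are named, and from each pathway list up to 3 called genes by smallest adjusted p. Genes were named from the platform annotation, and the Entrez identifiers of all 13 STAT probe sets gave the same symbols in RefSeq. The STAT genes and lists were chosen with earlier results of these data known. Alternatives were quantile normalization, a filter on dim probe sets, a variance trend, each line alone, a replicate block, array weights, 1 probe set per gene, the mean of all probe sets and leaving out each array. Protein and siRNA sequences were not used here.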

Additional observations from a re-analysis of the deposited data

Results flagged for a closer look

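Among the pathway genes, 1 of 26 receptors and kinases passed the test of the difference between the lines for Stat3 siRNA and 2 of 19 brakes for Stat5a/b siRNA, and no other listed gene did. Over all genes 1.38% and 8.16% passed, so these counts show nothing particular to the lists. IL6R, the interleukin-6 receptor, had an effect of Stat3 siRNA that differed between CWR22Rv1 and DU145 by -0.63 (adjusted p = 0.0087, limma), with a change of 0.82 (adjusted p = 1.85e-06) in DU145 set against 0.19 (adjusted p = 0.268) for CWR22Rv1. PIAS3, an inhibitor of STAT3, had an effect of Stat5a/b siRNA that differed by 0.50 (adjusted p = 0.00815, limma), at -0.41 for DU145 and 0.089 for CWR22Rv1 (adjusted p = 0.693). PTPN6, a phosphatase, differed under the same siRNA by 0.60 (adjusted p = 0.0114, limma), at -0.62 for DU145 and -0.023 for CWR22Rv1 (adjusted p = 0.96). Each group held 3 arrays.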

How the results depend on the processing

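Of 117 tests of a STAT probe set in a comparison, 37 were called, and 28 of these kept their call under every alternative run. No result reversed. Over the 454 alternative fits of the called tests, 41 lost the call. Among the 80 uncalled tests, 33 alternative fits gave a call. The STAT3 and STAT5B targets, by their brightest probe set, kept their call in all 14 alternatives each, and STAT5A stayed uncalled in all 14. The count of members called with Stat3 siRNA in DU145 fell from 5 to 3 with quantile normalization and to 3 with DU145 fitted alone, and was 3 to 4 when 1 array was left out. For the difference of the Stat3 siRNA effects between lines, the count rose from 0 to 1 with the filter on dim probe sets, to 1 with the variance trend and to 1 with the replicate block, and was 0 to 1 with 1 array left out. For Stat5a/b siRNA it rose from 0 to 2 with the filter, to 1 with the trend, to 1 with the replicate block and to 2 with array weights, and was 0 to 2 with 1 array left out. The cause of these moves was not tested, except that the filter leaves 30716 probe sets to adjust over. It removed 243213_at. Fits with 1 value per gene give no count of probe sets, and lines fitted alone give no comparison between lines.

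Counts over all probe sets, and with them the shares printed beside the members, moved by more than 1.5 times under some settings. In DU145 fitted alone they fell from 4928 to 1984 with Stat3 siRNA, from 8543 to 4090 with Stat5a/b siRNA and from 7840 to 3720 between the siRNAs. In CWR22Rv1 the line alone and array weights gave 2351 and 3878 against 1092 with Stat3 siRNA, 3289 and 4117 against 1692 with Stat5a/b siRNA, and 6087 and 6897 against 3334 between the siRNAs. The variance trend gave 1756 and 2543 with the siRNAs, and the filter gave 1791 and 2562. Leaving out 1 array gave 468 to 583, 872 to 1120 and 1907 to 2494 in these 3 comparisons. For the difference between lines, the filter, the trend and array weights gave 950, 1024 and 806 against 489 for Stat3 siRNA, and array weights gave 5237 against 2997 for Stat5a/b siRNA. Leaving out 1 array gave 196 to 538 and 1710 to 3741. Array weights also gave 9554 against 6331 for the mean Stat5a/b siRNA effect. With the replicate number as a block, no STAT call against scramble changed within a line, and STAT5A was called lower with Stat5a/b than with Stat3 siRNA in DU145 (-0.32, adjusted p = 0.0420). Without the block its adjusted p was 0.111 (limma). Equally numbered arrays of these siRNA groups correlated at 0.0053, 0.079 and -0.0014, so the block has no basis in this comparison. In DU145 the array numbered 3 was the lowest for STAT4 in each of the 3 groups. With the replicate block, the difference of the siRNA effects on STAT4 between lines was called for Stat3 (0.91, adjusted p = 0.0458) and Stat5a/b siRNA (1.18, adjusted p = 0.00468). In CWR22Rv1, STAT4 lay near the table median in every group, so a fall could hardly have been seen there. The numbers met the criterion for a pairing only between DU145 scramble and Stat3 siRNA arrays. No difference between the lines is drawn from these block calls.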
